A study of Zea mays with 6 samples.

Results

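Ethylene is a gaseous plant hormone that is made from S-adenosylmethionine in a short pathway. ACC synthase (ACS) converts S-adenosylmethionine to ACC (1-aminocyclopropane-1-carboxylate), and ACC oxidase (ACO) then converts ACC to ethylene. The synthase is usually regarded as the controlling step, and in Arabidopsis and other plants several ACS genes are known to respond to auxin. Here 5 maize genes of these steps were examined, out of 39283 genes in the expression table. They were chosen by identifier: the synthase genes ACS2 (GRMZM2G164405), ACS6 (GRMZM2G054361) and ACS7 (GRMZM5G894619), and the oxidase genes GRMZM2G052422 and ACO31 (GRMZM2G072529). Of these, 3 carry an ACS or ACO name in the RefSeq gene table (ACS6, ACS7 and ACO31). GRMZM2G164405 has no entry there and GRMZM2G052422 is listed without such a name, so their assignment rests on the list by which the genes were chosen.

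RNA was sequenced from the cut aerial parts of greenhouse-grown seedlings of the inbred line B73, 7 days old. The control group was incubated in 1% DMSO alone, and the auxin group in IAA (indole-3-acetic acid, the main natural auxin) with 1% DMSO. Both groups were kept in solution for 30 min, and each had 3 replicates of 3 pooled plants. The sample labels give the IAA dose as 100 mM and the methods of the study as 100 μM.

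Each gene has 1 FPKM value per treatment, which the authors' program computed over the 3 replicates. FPKM is a fragment count corrected for the length of the transcript and for library size, so levels can be set beside each other between genes. Values for single replicates were not used here, so the spread between them is unknown, the treatment was not tested, and differences are given as descriptions of these pooled values. In whole shoots, more RNA per cell and more cells that express a gene cannot be told apart. Over all genes, the FPKM sum after IAA was 95.6% of the control sum. Shoot genes of C4 photosynthesis and carbon fixation (PEPC1, PPDK, me3, ssu1 and mdh6) were abundant, with DMSO levels from 422 to 1741 FPKM, and all 5 were higher after IAA, by folds from 1.01 for ssu1 to 1.57 for PPDK. Their summed level was 5097 FPKM in DMSO and 6825 FPKM after IAA, and their part in the results below was not tested. The root genes rth3 and rtcs were at 11.1 and 0.053 FPKM in DMSO and at 8.70 and 0.220 FPKM after IAA.

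All 5 ethylene synthesis genes were expressed in both treatments. Their mean over both treatments was 1 FPKM or more and both values were above 0, as held for 22506 genes in all. Among the chosen genes of each step, the most abundant kept almost the same level after IAA, whereas the less abundant were higher. ACS2, ACS6 and ACO31 were 2.26-fold, 1.52-fold and 1.64-fold higher, and ACS7 and GRMZM2G052422 differed from the control by 1.1% and 1.4%. Only ACS2 passed a fold of 2. Among these 22506 genes, 0.938% were higher by a fold over 2 and 1.4% were lower. A fold over 1.5 upward was reached by 3 of the 5 ethylene synthesis genes and by 4.1% of all these genes. The same fold downward was reached by 0 of the 5 and by 5.18% of all. The 5 genes were chosen with earlier results of these data known, so these shares are set side by side as description only.

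**Figure D1:**
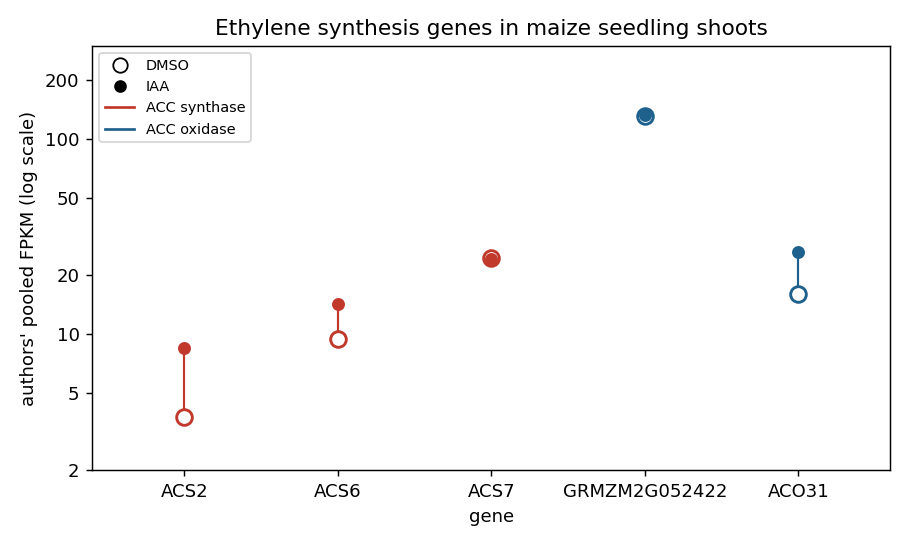
Authors' pooled FPKM (log axis) of the 3 ACC synthase genes (red) and the 2 ACC oxidase genes (blue), with open circles for DMSO and filled circles for IAA; no error bars are drawn because each point is 1 value over 3 replicates. The circles of ACS7 and GRMZM2G052422 coincide, and those of ACS2 lie farthest apart, at 3.73 and 8.44 FPKM.

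The synthase genes were examined first. ACS2 lies on chromosome 2 from 15900748 to 15904400 (B73v3) and was the least abundant of the 5 genes in both treatments. Its FPKM was 3.73 in DMSO and 8.44 after IAA, a log2 ratio of 1.18. This ratio was higher than that of 99.4% of the 22506 genes. Of the 8964 genes with a mean FPKM from 5 to under 20, the band that holds ACS2, 46 had a ratio at least as high, ACS2 itself included. In that band, 0.68% of genes were higher by a fold over 2. With 1 FPKM added to both values, the fold of ACS2 was 1.99, just under 2.

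ACS6, on chromosome 1 from 271834818 to 271837308, is known from maize mutants whose leaves stay green longer. Its FPKM was 9.40 in DMSO and 14.3 after IAA, with a log2 ratio of 0.61. The difference in level was close to that of ACS2 in absolute terms, 4.92 against 4.71 FPKM, although the starting level of ACS6 was 2.52 times that of ACS2. The ratio of ACS6 exceeded that of 96.2% of the 22506 genes, and 258 of the 8964 genes in its band of abundance had a ratio at least as high, itself included. In that band, 3.09% of genes were higher by a fold over 1.5. The fold of ACS6 lies close to that limit, and with 1 FPKM added to both values it was 1.47.

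ACS7, on chromosome 10 from 136107954 to 136110772, had the highest level of the synthase genes. Its FPKM was 24.4 in DMSO and 24.2 after IAA, with a log2 ratio of -0.02. The median log2 ratio of the 22506 genes was -0.04, so ACS7 sat near the middle of the distribution, above 53.4% of the genes. The sign of so small a ratio depends on the scaling: it was 0.02 with the median gene set to 0 and 0.05 with equal FPKM sums. In the plot against all genes ACS7 falls in the densest part of the cloud, while ACS2 lies above most of it, with some genes of similar level higher still.

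**Figure D2:**
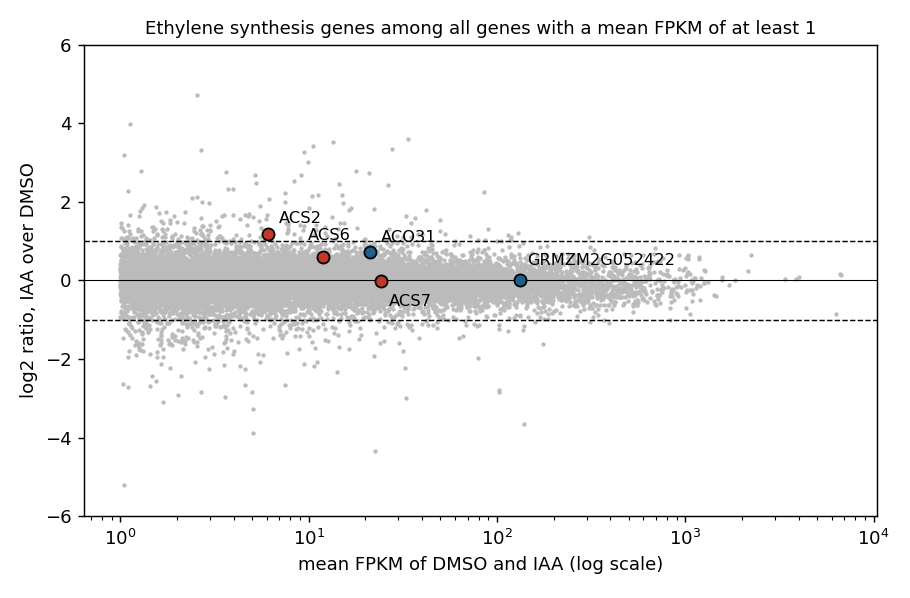
Log2 ratio of pooled FPKM (IAA over DMSO) against the mean FPKM of both treatments (log axis). Grey points are the 22506 genes with a mean of at least 1 and both values above 0. The ACC synthase genes are in red and the ACC oxidase genes in blue. Dashed lines mark a fold of 2 in either direction, and only ACS2, at 1.18, lies beyond them among the 5 genes.

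The levels of the synthase genes were therefore closer together after IAA. In DMSO, ACS7 was 6.55 times as abundant as ACS2 and 2.60 times as abundant as ACS6. After IAA these ratios of levels were 2.86 and 1.69. The order ACS7, ACS6, ACS2 was the same in both treatments. ACS7 made up 65.0% of the summed synthase FPKM in DMSO and 51.5% after IAA, and the share of ACS2 was 9.93% and 18.0%. The share of ACS6 was 25.03% and 30.5%. Summed over the 3 genes, the synthase level was 37.6 FPKM in DMSO and 46.9 FPKM after IAA, a fold of 1.25.

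The oxidase genes form the last step of the pathway. GRMZM2G052422, on chromosome 5 from 210825846 to 210828416, was the most abundant of the 5 genes, with a mean level above that of 95.2% of the 22506 genes. Its FPKM was 131 in DMSO and 133 after IAA, with a log2 ratio of 0.02. As with ACS7, its ratio was inside the middle of the distribution, above 58.7% of the genes.

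ACO31 lies on chromosome 10 from 90301775 to 90303069. Its FPKM was 16.0 in DMSO and 26.3 after IAA, with a log2 ratio of 0.71. The difference of 10.2 FPKM was the largest of the 5 genes in absolute terms. Among the 5589 genes with a mean FPKM from 20 to under 100, 79 had a ratio at least as high, ACO31 itself included, and 2.33% were higher by a fold over 1.5. ACO31 stood below ACS7 in DMSO, at 0.657 of its level, and slightly above it after IAA, at 1.09 times its level. Without replicate values it is not known whether either difference in level exceeds the spread.

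Summed over both oxidase genes, the level was 147 FPKM in DMSO and 159 FPKM after IAA, a fold of 1.08. GRMZM2G052422 accounted for 89.1% of this sum in DMSO and 83.5% after IAA, and ACO31 for the remaining 10.9% and 16.5%. The oxidase sum was 3.92 times the synthase sum in DMSO and 3.39 times after IAA. Both sums hold only the chosen genes, so other oxidase genes such as ACO20 (described below), and any other synthase genes, are not counted. Of the 3 synthase genes 1 passed a fold of 2 and 2 passed a fold of 1.5, and of the 2 oxidase genes 0 passed a fold of 2 and 1 passed a fold of 1.5. All of these were upward, and of the 22506 genes 0.938% passed a fold of 2 upward and 4.1% a fold of 1.5 upward. The median log2 ratio was 0.61 for the synthase genes and 0.37 for the oxidase genes, beside -0.04 for the 22506 genes. With so few genes, and with both classes holding a gene near 0 and a gene above 0.6, the classes were not tested against each other.

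**Figure D3:**
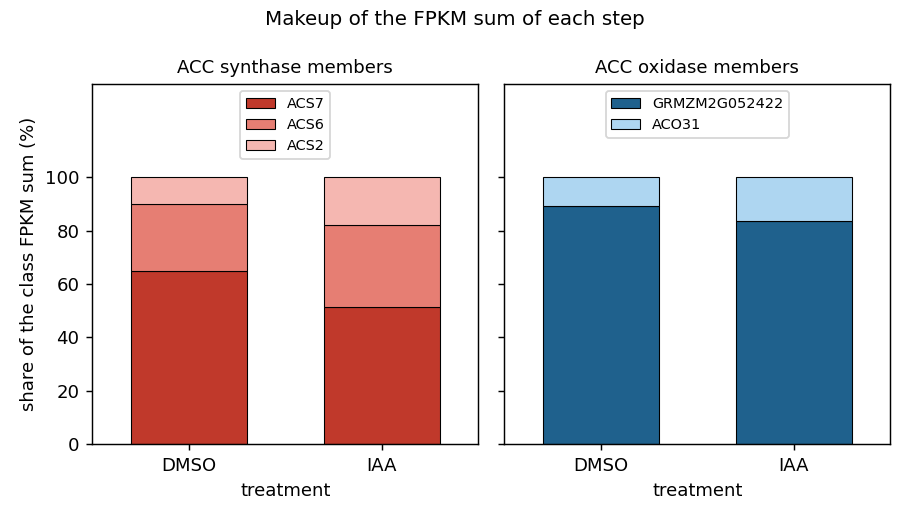
Share of the summed pooled FPKM (%) taken by each ACC synthase gene (left) and each ACC oxidase gene (right) in DMSO and after IAA. The dark segments at the bottom are the most abundant genes, ACS7 and GRMZM2G052422, whose shares were 65.0% and 89.1% in DMSO and 51.5% and 83.5% after IAA.

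None of the 5 loci overlapped another gene in the table. The nearest neighbour of ACS2, GRMZM2G164413, starts 2559 bases after its end and was lower after IAA, at 102 FPKM in DMSO and 59.8 FPKM after IAA. The gene on the other side of ACS2, GRMZM2G164378, was at 17.9 and 25.6 FPKM. Taking the 3 genes on each side of every ethylene synthesis gene gave 30 neighbours, of which 21 averaged 1 FPKM or more. None of these 21 was past a fold of 2 in either direction, 0 were higher by a fold over 1.5 and 2 were lower by that fold. Of all 22506 genes, 0.938% were higher and 1.4% lower by a fold over 2. At a fold over 1.5 these shares were 4.1% and 5.18%, so such counts would be usual for any 21 genes. The log2 ratios of the 21 neighbours ranged from -0.77 to 0.51, below those of ACS2, ACS6 and ACO31. The neighbours averaging under 1 FPKM went both ways. GRMZM2G138252 near ACO31 had the largest rise among them, at 0.421 FPKM in DMSO and 0.939 FPKM after IAA. GRMZM2G072632, next to ACO31, was at 0.234 and 0.176 FPKM, and GRMZM2G084086 near GRMZM2G052422 at 0.554 and 0.300 FPKM. With no minimum mean, 4.02% of genes above 0 in both treatments were higher by a fold over 2 and 4.33% were lower.

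Other ethylene genes were taken from the RefSeq gene table by name. No further ACS gene was found by this rule. The oxidase gene ACO20 (GRMZM2G126732, chromosome 4 from 177657802 to 177660210) was found, with 5.10 FPKM in DMSO and 6.66 FPKM after IAA, a log2 ratio of 0.39. Ethylene receptors sit in the endoplasmic reticulum membrane and repress the response until ethylene binds. The receptor gene ETR2 (GRMZM2G420801) was at 37.0 and 37.6 FPKM, and the receptor gene ERS14 (GRMZM2G102601) at 10.4 and 10.1 FPKM, so both were near their control level.

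The remaining 8 genes belong to the ARGOS family, whose members lower the sensitivity to ethylene when overexpressed and whose first known gene, in Arabidopsis, is induced by auxin. ARGOS7 was listed at 0 FPKM in DMSO and at 0.0351 FPKM after IAA. Of the other 7 genes, 6 had a log2 ratio below 0 and 1 above 0, with a median of -0.19. Over the 22506 genes, 55.5% had a log2 ratio below 0. The lowest ratio was that of ARGOS8 (GRMZM2G354338), at 19.5 FPKM in DMSO and 12.4 FPKM after IAA, a log2 ratio of -0.66. ARGOS9 (GRMZM2G082943) was at 18.3 and 14.3 FPKM, and ARGOS5 (GRMZM2G175995), the 1 gene above 0, at 27.4 and 30.8 FPKM. Of the 10 receptor, ARGOS and ACO20 genes averaging 1 FPKM or more, 0 were past a fold of 2 in either direction, and 1, ARGOS8, was lower by a fold over 1.5. Of the 22506 genes, 0.938% were higher and 1.4% lower by a fold over 2, and 5.18% were lower by a fold over 1.5. So few genes past a fold would be usual for any 10 genes.

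**Figure D4:**
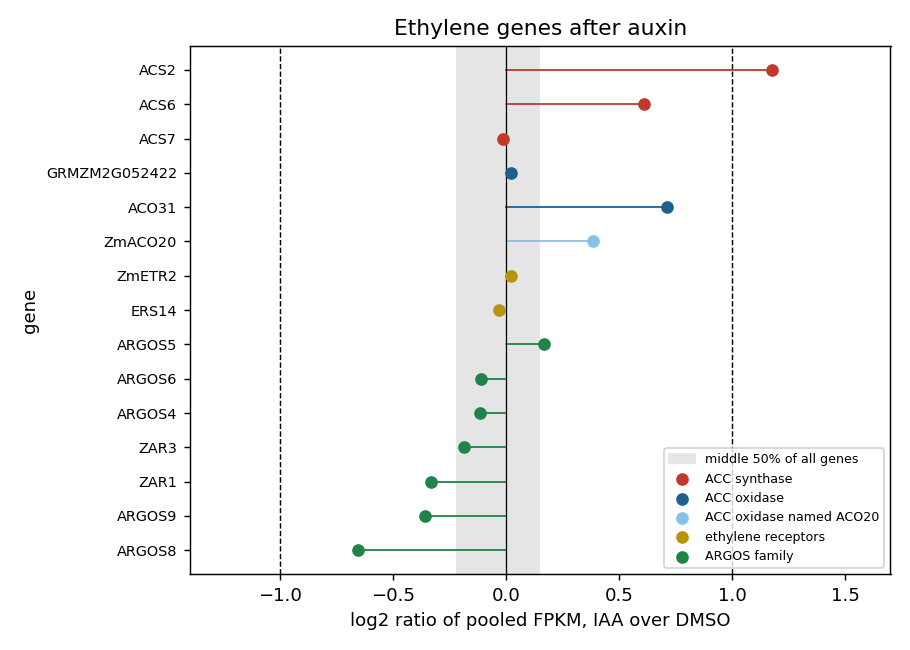
Log2 ratio of pooled FPKM (IAA over DMSO) for the 5 ethylene synthesis genes and the 10 other ethylene genes found by name that averaged 1 FPKM or more, coloured by role, with the middle 50% of all genes (-0.22 to 0.15) in grey and dashed lines at a fold of 2. ACS2, ACS6, ACO31, ACO20 and, at its border, ARGOS5 (0.17) lie to the right of the grey band, and ARGOS8, ARGOS9 and ZAR1 (an ARGOS gene) to its left.

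The genes most like each of the 5 were sought among 2175 genes with a name, by distance in log2 FPKM over both treatments. With only 2 pooled values per gene, such likeness means similar levels and nothing more. The nearest to ACS2 were CYPPDKZM2, at 4.26 and 8.52 FPKM, and ARF2, at 4.48 and 8.17 FPKM, and the nearest to ACS6 were EREB156, at 9.89 and 14.2 FPKM, and PIN1a, at 8.94 and 13.9 FPKM. ACO31 was nearest to aprl2, at 15.9 and 29.0 FPKM, and Cat0, at 17.5 and 25.2 FPKM. ACS7 was nearest to TPS8 and MPK6-1, and GRMZM2G052422 to mir3 and TATA.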

How the data were processed

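Aerial parts of B73 seedlings were kept for 30 min in IAA with 1% DMSO or in 1% DMSO alone (3 replicates of 3 plants each). Per the labels and the methods of the study, the authors used trimmomatic, then TopHat2 2.1.1 on the B73v3 genome, then Cuffdiff 2.2.1. The authors deposited 1 FPKM value per gene and treatment, pooled over replicates. They also deposited their own log2 fold changes, test statistics, p-values and q-values, which were not used. The annotation given to Cuffdiff is not given in the sources used here. Of 2178 genes with a mean below 0.1 FPKM and both values above 0, no more than 0.872% shared a ratio within 1%, so whole reads were not recovered and the depth is unknown.

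Log2 ratios (IAA over DMSO) were computed from the FPKM values with no pseudocount. A gene was counted as higher or lower past a fold of 2, among genes averaging 1 FPKM or more over both treatments, with both values above 0. The planned limma fit needs replicate values and was replaced by this description. Names came from the RefSeq table of Zm-B73-REFERENCE-NAM-5.0, which holds 18843 of the 39283 identifiers. It has no descriptions, so the pathway lists rest on symbols. Symbols whose enzyme was not stated or was another one were left out (4 genes). They included the only matches for SAM synthetase and methionine salvage, so no gene remained for those lists. The ethylene signalling symbols CTR1, EIN, EIL, EBF, ETO and EOL were searched and gave no gene, so only the ARGOS family stands for signalling. RTE1 was planned but not searched. Genes named in the text were the 5 ethylene synthesis genes, the highest and lowest ratio of each list, any gene past the fold, the 2 genes nearest to each of the 5, and the shoot and root marker genes of a fixed list. ARGOS7, ARGOS9, ZAR1 and the neighbouring genes were named after their values were seen. The members and lists were chosen with earlier results of these data known. Coordinates count from 1, which adds 1 to each deposited start. Alternatives were pseudocounts of 0.1 and 1 FPKM, centring, equal sums, no minimum mean, a minimum mean of 5 FPKM, and a fold of 1.5. The count of genes past a fold was tested on simulated data. The software was pandas 2.3.3 and numpy 2.4.6 under Python 3.11.15, with matplotlib 3.10.9 for the plots.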

Additional observations from a re-analysis of the deposited data

How the results depend on the processing

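No paired analysis was possible because replicates were pooled into 1 value per treatment, and for the same reason the limma fits and leaving out replicates were not run. With no spread between replicates, a ratio was counted as unchanged where it was equal to 2 decimals. With 1 FPKM added to both values the log2 ratios were 1.00 (0.996, just under a fold of 2) for ACS2, 0.56 for ACS6, 0.68 for ACO31 and -0.015 for ACS7. With 0.1 FPKM they were 1.16 for ACS2 and 0.60 for ACS6. With the median gene set to 0 they were 1.22 for ACS2, 0.65 for ACS6, 0.023 for ACS7, 0.058 for GRMZM2G052422 and 0.75 for ACO31. With equal FPKM sums they were 1.24, 0.67, 0.049, 0.084 and 0.78 in the same order. Both settings shift every gene by the same amount, and the sign of ACS7 changed by that construction.

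The log2 ratio of the synthase sum was 0.32, and 0.39 with equal FPKM sums. That of the oxidase sum was 0.11, and 0.18 with equal FPKM sums. Without the most abundant gene of the class they were 0.79 and 0.71. Over all genes, 211 were higher and 314 lower past a fold of 2. These counts were 1190 and 1283 with no minimum mean, and 93 and 127 with a mean of at least 5 FPKM. They were 116 and 166 with 1 FPKM added, and 922 and 1165 at a fold of 1.5. The counts with 1 FPKM added are out of 22524 genes, because a value of 0 was allowed there. Of the other ethylene genes, the count lower past the fold went from 0 to 1 at a fold of 1.5, and the count higher stayed at 0. The unknown depth limits what can be said of ACS2, the gene with the lowest level among the 5 ethylene synthesis genes.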
